A study of Mus musculus with 8 samples.

Results

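The axon guidance ligands and receptors examined here are 71 protein-coding genes of the 32567 genes in the RNA-seq table, selected by their gene names and by no measured value. They comprise 20 semaphorins with their receptors, 9 plexins and 2 neuropilins, 3 Slits with 4 Robo receptors, 3 netrins and 2 netrin-Gs with 6 netrin receptors (Dcc, Neo1 and the Unc5 genes), and 8 ephrins with 14 Eph receptors. RNA was sequenced from mouse embryonic stem cells (ESC) and from the cells derived from them through embryoid bodies and retinoic acid (RA-DIFF), in a wild-type parental line and in an Hdh ex4/5/ex4/5 line, in which both copies of Htt, the orthologue of the Huntington's disease gene, were inactivated by targeting (Htt-null). ESC had been kept without feeder cells for 4 passages, embryoid bodies were grown for 8 days, 5 µM retinoic acid was present from day 4, and the dissociated cells were collected 2 h after plating. Each of the 4 conditions is 1 library and each genotype is 1 cell line, so that no difference given here has a replicate check, the calls rest on a fold and not on a test, and line and genotype cannot be told apart.

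The 4 libraries hold between 63617410 and 110569127 counts. The targeted gene was examined first. Htt had 14385 reads in wild-type ESC, 7260 in Htt-null ESC, 8212 in the WT-labelled RA-DIFF library and 9722 in the null-labelled RA-DIFF library, that is 166, 111.3, 73.3 and 98.7 CPM (counts relative to the TMM-scaled library size). Htt is lower in the null line in ESC (log2 ratio -0.58) but goes against the label in RA-DIFF (0.43). Both ratios are inside the limit of 0.75 used below. Reads on the gene persist in the targeted line, so Htt reads alone are a weak sign of genotype. The values that the study's supplement lists for the RA-DIFF conditions lie nearer the deposited column of the other genotype for every guidance gene that could be read there. The RA-DIFF libraries are therefore named by their labels throughout. The terms WT-labelled and null-labelled mark this. Should the labels be exchanged, each RA-DIFF difference between genotypes keeps its size and takes the opposite sign, whereas ratios of RA-DIFF over ESC within a line take other values. As for the labelled cell states, 8 pluripotency genes summed to 5364 and 4661 CPM in wild-type and Htt-null ESC and to 59.5 and 10.98 CPM in RA-DIFF (labelled wild type, then Htt-null), whereas 12 neuron genes summed to 294 and 334 CPM in ESC and to 3033 and 1435 CPM in RA-DIFF.

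Growing axons are steered at their tips by secreted and membrane-bound cues. Netrins, made by the floor plate at the ventral midline of the neural tube, attract commissural axons through Dcc and repel through Unc5 receptors. Slits, from the same midline cells, repel axons that carry Robo receptors, and Robo3 lets commissural axons approach the midline. Secreted class 3 semaphorins signal through neuropilins joined to plexins, while membrane-bound semaphorins bind plexins directly. Ephrins and Eph receptors sit on opposing cells and sort neighbouring axons and tissues, and all these families also act outside the nervous system, in vessels, neural crest and mesenchyme.

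The sequences shown first are the miRNAs that lie inside 2 of the Slit genes, since their levels are set beside those of their hosts at the end. Mir218-1 lies in an intron of Slit2 (miR-218-5p at chr5:48223966-48223986, plus strand) and Mir218-2 in an intron of Slit3 (miR-218-5p at chr11:35616840-35616860, plus strand). Capitals mark the seed, bases 2 to 8, in the mature RefSeq sequences on GRCm38, and the 5p arm is identical at both loci while the 3p arms differ in their seeds.
miR-218-5p: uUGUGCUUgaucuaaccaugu
miR-218-1-3p: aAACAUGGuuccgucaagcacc
miR-218-2-3p: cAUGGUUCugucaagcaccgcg

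Stretches of 200 bases upstream of the RefSeq start (GRCm38.p6) are given for 4 receptors or ligands whose levels moved far with differentiation or between the RA-DIFF libraries. They are Epha3 (chr16:63864176-63864375, minus strand), Epha2 (chr4:141301021-141301220, plus strand), Sema5a (chr15:32244613-32244812, plus strand) and Robo3 (chr9:37433176-37433375, minus strand). Capitals mark the 6-base half-site of retinoid receptors, AGGTCA, found 133 bases upstream of the Epha2 start on the reverse strand and 139 bases upstream of the Sema5a start, and in Sema5a also the Gli core CCACCCA on the reverse strand. None of the searched motifs was in the Epha3 and Robo3 stretches. The 4 genes are examples, and Slit2, Slit3, Sema3a and Ephb1, which also moved far, had none of these motifs in theirs.
Epha3: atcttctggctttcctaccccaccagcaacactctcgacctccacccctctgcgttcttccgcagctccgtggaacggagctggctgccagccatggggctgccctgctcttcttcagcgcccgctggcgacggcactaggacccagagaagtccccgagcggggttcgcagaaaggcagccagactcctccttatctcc
Epha2: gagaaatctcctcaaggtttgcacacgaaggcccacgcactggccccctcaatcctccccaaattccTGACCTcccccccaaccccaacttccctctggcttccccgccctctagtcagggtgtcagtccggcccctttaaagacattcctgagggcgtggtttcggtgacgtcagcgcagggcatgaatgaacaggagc
Sema5a: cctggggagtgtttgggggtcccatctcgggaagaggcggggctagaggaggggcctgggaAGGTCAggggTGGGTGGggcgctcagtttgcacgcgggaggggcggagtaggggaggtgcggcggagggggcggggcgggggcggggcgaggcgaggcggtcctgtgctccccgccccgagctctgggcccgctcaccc
Robo3: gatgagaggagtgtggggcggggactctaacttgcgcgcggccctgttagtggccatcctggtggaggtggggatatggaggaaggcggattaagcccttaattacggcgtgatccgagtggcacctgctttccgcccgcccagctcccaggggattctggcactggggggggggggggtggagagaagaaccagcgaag

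Promoter windows of 300 bases, from 250 before to 50 after the start, were found for 61 of the 71 genes, 77 windows in all, and searched on both strands. The half-site AGGTCA was in 11 of the 77 windows (14.3%) and in 16.3% of all 32851 promoters. Its direct repeats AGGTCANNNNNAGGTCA and AGGTCANNAGGTCA, which contain it, were in none of the 77 and in 3 of all promoters each. The E-box CAGCTG of proneural factors was in 12 windows (15.6%, against 16.3% of all), the Gli core CCACCCA in 8 (10.4%, against 9.30%) and the forkhead core TGTTTAC in none (3.65% of all). The guidance gene promoters held a median of 20 CpG in 300 bases and 64% GC, compared with 7 CpG and 52.7% GC over all promoters. A match is a description of these letters and does not show binding.

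In ESC the guidance genes were mostly at low levels. Levels per length were taken as TPM, in which counts are divided by exon length before scaling to the library. By these, 21 of the 71 were above 10 TPM in wild-type ESC and 20 in Htt-null ESC, with medians of 4.20 and 3.88 TPM. In RA-DIFF 42 and 41 genes were above 10 TPM (labelled wild type, then Htt-null), with medians of 17.3 and 16.8 TPM. The highest in both ESC libraries was the receptor Epha2, with 122 TPM in the wild type and 98.1 in the null, followed by the plexins Plxna1 and Plxnb2. In RA-DIFF Plxnb2 took the first place, with 216 TPM in the WT-labelled library and 368 in the one labelled Htt-null. The second place was held by Efnb2 (150 TPM) in the WT-labelled library, just above Efnb1 (137) and Efnb3 (133), but by Ntn1 (348 TPM) in the null-labelled library, where Efnb3 came next with 164. Ntn1 stood at rank 12 in the WT-labelled library, with 63.7 TPM. Since each condition is 1 library, neighbours in these orders cannot be told apart beyond counting.

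**Figure D1:**
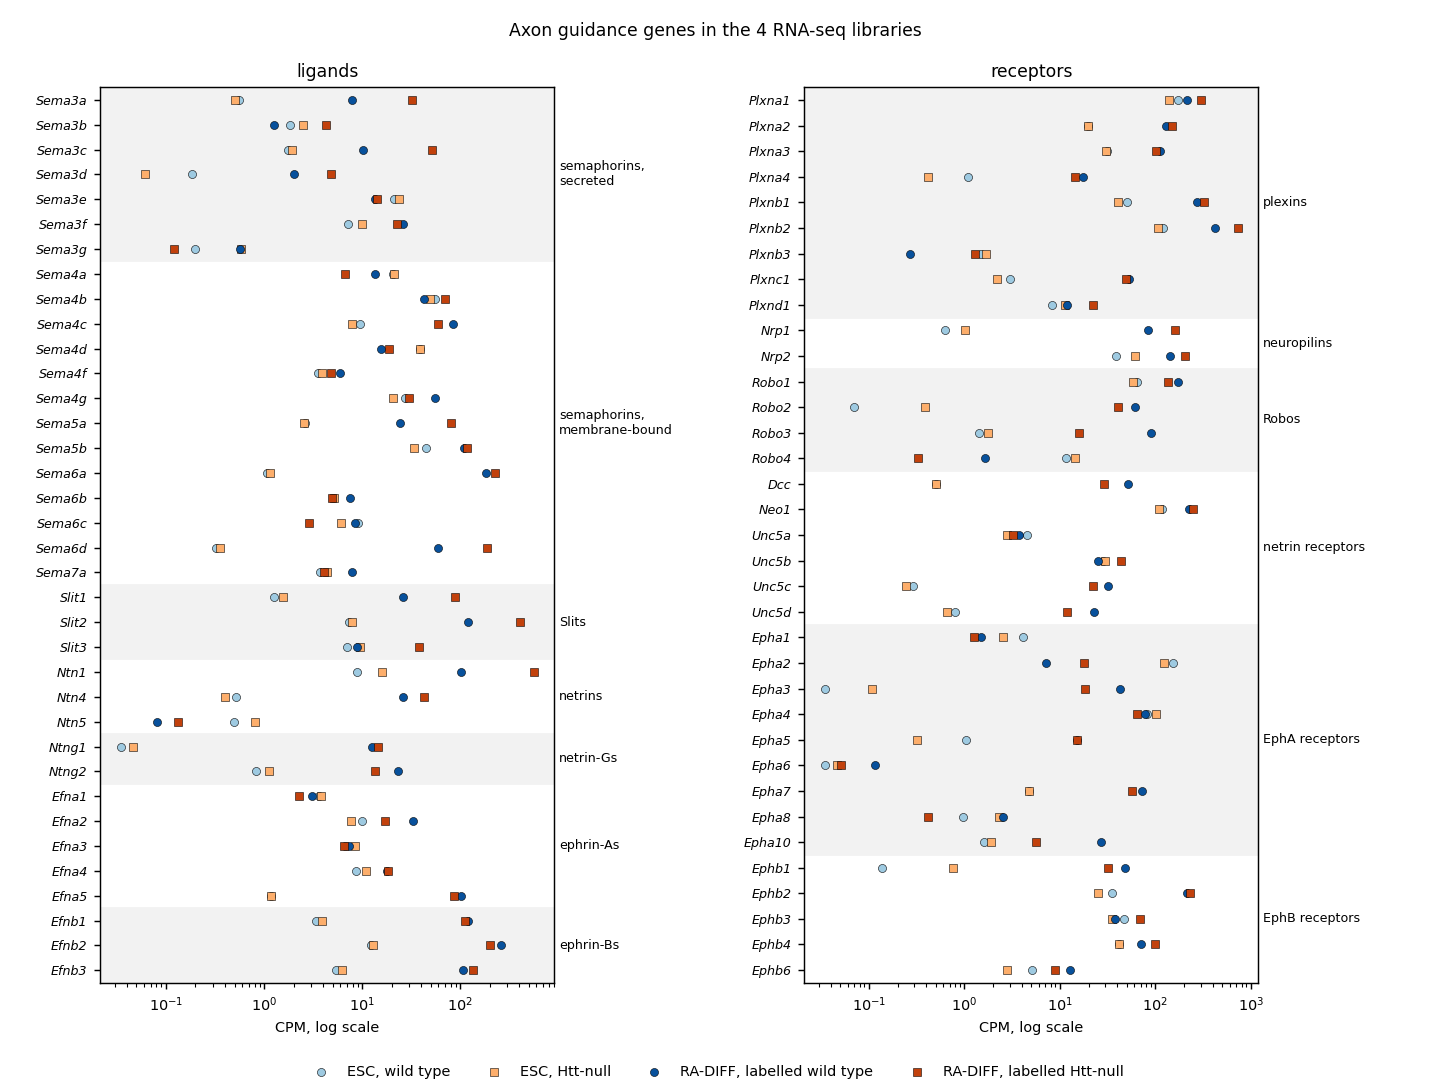
CPM of each guidance gene (rows, ligands left, receptors right, grouped by family) in the 4 RNA-seq libraries on a log axis, 1 library per point; a library under 3 counts is drawn at the level of 3 counts. For most genes the dark RA-DIFF symbols lie to the right of the pale ESC symbols, with Epha2 and Robo4 on the opposite side, and the dark symbols lie far apart for Ntn1, Slit2 and Robo3.

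Across differentiation the guidance genes were higher far more often than lower. A gene was counted as higher or lower when its log2 ratio of CPM (prior count of 2) passed 0.75 and edgeR's average log2 CPM was above 0, a limit that 68 of the 71 and 15492 genes in all passed, while Sema3g (17, 38, 64 and 12 reads), Ntn5 (43, 53, 9 and 13) and Epha6 (3, 0, 13 and 5) did not, in the order wild-type ESC, Htt-null ESC, RA-DIFF labelled wild type and RA-DIFF labelled Htt-null, which is kept below. In WT-labelled cells 48 of the 68 were higher in RA-DIFF and 5 lower, against 33.9% higher and 26.1% lower of all genes. In null-labelled cells 49 were higher and 7 lower, against 34.3% and 24.8% of all. Fewer were lower there when an exact test at an assumed dispersion of 0.1 was added. The median log2 ratio was 1.87 and 1.88 in the 2 lines, where that of all genes was 0.12 and 0.17. The lines shared no library in these comparisons, and 44 of the 68 genes were higher and 4 lower in both, against 28.8% and 21.1% of all genes. Sema4f, Sema4g and Sema7a were higher in WT-labelled cells and inside the limit in those labelled Htt-null, Sema4f just past it (0.75), and the converse held for Sema3b, Plxna1, Plxnd1, Slit3 and Ephb3. Of these, Sema3b was inside the limit in both lines with library size alone, as was Sema4f with median-of-ratios factors, and the difference between the lines was not tested. The 8 genes inside the limit in both were Sema3e, Sema4b, Sema6b, Unc5a, Unc5b, Efna1, Efna3 and Epha4.

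Of the 34 ligands above the limit 24 were higher and 1 lower in WT-labelled cells and 23 and 3 in null-labelled cells. Of the 34 receptors 24 were higher and 4 lower, then 26 and 4. Of all genes 33.9% were higher and 26.1% lower in WT-labelled cells, and 34.3% and 24.8% in null-labelled cells. Among the ephrin-Bs, transmembrane ligands of the EphB receptors, all 3 were higher in both lines. Efnb2 had 12.4 and 12.9 CPM in wild-type and Htt-null ESC and 262 and 203 CPM in RA-DIFF. Efnb1 went from 3.36 and 3.91 to 120 and 112 CPM, and Efnb3 from 5.39 and 6.27 to 107 and 134 CPM. The log2 ratios of the 3 genes lay between 3.97 and 5.16. Of the ephrin-As, which are anchored by a lipid, Efna5 came to a like level, from 102 and 76 reads in ESC to 11534 and 8460 in RA-DIFF, and Efna2 was higher in both lines as well. Efna4 was too, but only just past the limit in null-labelled cells (0.75), and inside it with library size alone or median-of-ratios factors.

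The largest ratios were those of receptors and ligands nearly silent in ESC, which few reads in the denominator favour by themselves. Such genes passed the expression limit through their RA-DIFF reads, and other genes silent in ESC were not compared. Epha3, a receptor of ephrin-As, had 0 reads in wild-type ESC and 7 in Htt-null ESC, then 4752 and 1787 in RA-DIFF, so that it was at least 1226-fold higher in WT-labelled cells, taking 3 counts for the library at 0, and higher by 7.13 on the log2 scale in null-labelled cells. Robo2, a Slit receptor, had 6 and 25 reads in ESC and 6816 and 4020 in RA-DIFF, log2 ratios of 9.38 and 6.65. The 95% counting interval of the first is 8.27 to 10.5, and all such intervals, like the floor of 3 counts, cover counting error only. Ephb1 had 12 and 50 reads against 5346 and 3141. The ESC counts behind these ratios are 0 to 50 reads, and the RA-DIFF counts of Epha3 differ too.

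Ntng1, a membrane-anchored relative of the netrins, had 3 and 0 reads in ESC and 1405 and 1441 in RA-DIFF. Its log2 ratio was 7.79 (6.28 to 9.31 from counting alone) in WT-labelled cells, and it was at least 318-fold higher in null-labelled cells. The transmembrane semaphorin Sema6a had 93 and 75 reads in ESC and 20731 and 22540 in RA-DIFF, a 169-fold difference in WT-labelled cells, and reached 82.9 and 102 TPM, above every other semaphorin. Its relative Sema6d had 28 and 23 reads, then 6680 and 18529. Nrp1, the receptor shared by class 3 semaphorins and VEGF, had 54 and 67 reads against 9304 and 15650, and Ntn4, a basement membrane netrin, 45 and 26 against 2902 and 4216. In each of these 5 genes both RA-DIFF libraries were far above both ESC libraries.

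Few members were lower after differentiation. Epha2, the foremost guidance gene of ESC, had 13212 and 7952 reads in ESC and 802 and 1765 in RA-DIFF, log2 ratios of -4.41 and -2.76. Robo4, the Robo of endothelial cells, had 1010 and 945 reads against 184 and 32, log2 ratios of -2.81 and -5.39. Epha1 was lower in both lines (353 and 165 reads, then 166 and 123, log2 ratios -1.44 and -1.01). So was Sema4d, a transmembrane semaphorin known from lymphocytes (3361 and 2549 reads, then 1752 and 1872, log2 ratios -1.31 and -1.04). Plxnb3, a receptor of Sema5a, was lower in WT-labelled cells, with 131 reads in ESC and 30 in RA-DIFF, and had 110 and 126 in null-labelled cells. Sema4a (-1.66), Sema6c (-1.10) and Epha8 (-2.40) passed the limit downwards in null-labelled cells, while their ratios in WT-labelled cells were -0.61, -0.11 and 1.39.

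**Figure D2:**
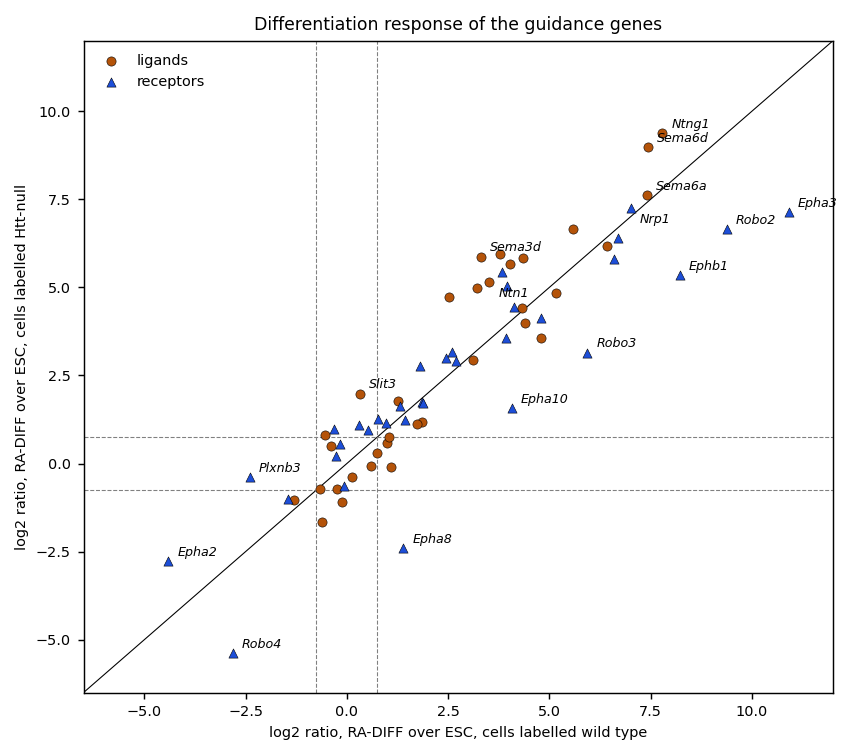
Log2 ratio of RA-DIFF over ESC in null-labelled cells (vertical) against the same ratio in WT-labelled cells (horizontal) for the 68 guidance genes above the expression limit, with the diagonal and the 0.75 limits as lines; points at 0 reads in an ESC library (Epha3, Ntng1) are drawn at their fitted ratio, which is no bound. Most points lie in the upper right, Epha2 and Robo4 in the lower left, and Robo3, Epha10 and Epha8 lie furthest below the diagonal together with Epha3, Robo2, Ephb1 and Robo4.

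Between the RA-DIFF libraries the guidance genes split. In the null-labelled library 17 of the 68 were higher and 13 lower than in the WT-labelled library, against 11.7% higher and 8.99% lower of all genes, and the median log2 ratio was -0.06, with -0.01 over all genes. With an absolute log2 ratio above 1 there were 12 higher and 7 lower, and with an exact test at an assumed dispersion of 0.1 added 11 were higher and 5 lower. Of the 34 ligands above the limit 10 were higher and 6 lower, and of the 34 receptors 7 were higher and 7 lower. The summed level of the ligands was 1653 CPM in the WT-labelled library and 2692 in that labelled Htt-null, and that of the receptors 2776 and 3221 CPM. The netrins, with 128 and 605 CPM, and the Slits, with 156 and 532 CPM, held most of the difference in the ligand sum.

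**Figure D3:**
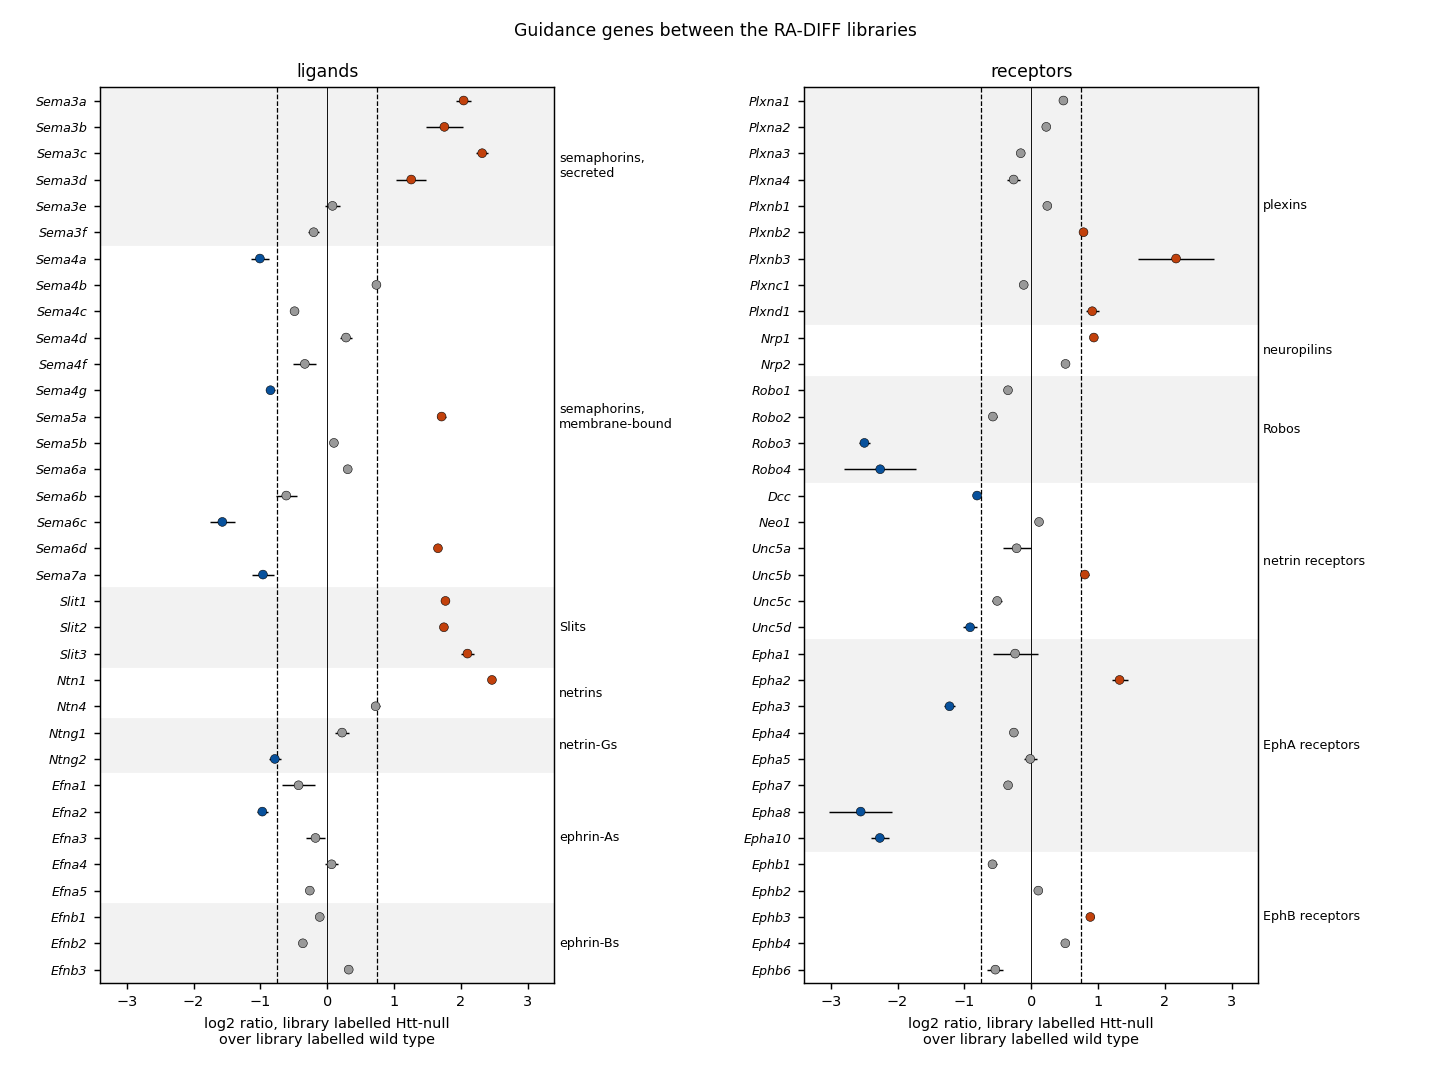
Log2 ratio of the null-labelled RA-DIFF library over that labelled wild type for each guidance gene above the expression limit, by family, with 95% counting intervals as bars and the 0.75 limits dashed; red points are past the limit upwards, blue ones downwards, grey ones inside. All Slits, 4 of the 6 secreted semaphorins and Ntn1 are red, and Robo3, Robo4, Epha8 and Epha10 are the blue points beyond -2.

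Ntn1, the founding midline attractant, showed the largest positive ratio. It had 766 reads in wild-type ESC, 1033 in Htt-null ESC, 11390 in the WT-labelled RA-DIFF library and 55313 in that labelled Htt-null, or 8.83, 15.8, 102 and 562 CPM, a 5.53-fold difference between the RA-DIFF libraries (log2 ratio 2.47, 2.44 to 2.50 from counting alone). The gene lies at chr11:68209364-68400823 on the minus strand. Ntn4 stood at 25.9 and 42.8 CPM in RA-DIFF, just inside the limit (0.72). The netrin receptors did not share this pattern. Dcc, which mediates attraction to netrin, had 44 and 33 reads in ESC and 5756 and 2880 in RA-DIFF, a log2 ratio of -0.81, while Neo1, the most abundant netrin receptor per length (102 and 110 TPM in RA-DIFF), had 10068 and 7169 reads in ESC and 25379 and 24176 in RA-DIFF, a ratio of 0.12. Of the repulsive receptors, Unc5b was higher (0.80, but inside the limit with library size alone), Unc5d lower (-0.92), and Unc5a (-0.22) and Unc5c (-0.51) stayed inside the limit.

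All 3 Slits were higher in the null-labelled library, by 1.77, 1.75 and 2.10 on the log2 scale for Slit1, Slit2 and Slit3. Slit2, the most abundant Slit per length (18.7 and 62.0 TPM in RA-DIFF), had 639 and 516 reads in ESC and 13526 and 39899 in RA-DIFF. Slit1 had 109 and 101 reads, then 2919 and 8754. Slit3 had 611 and 623 reads in ESC, 989 in the WT-labelled RA-DIFF library, between the ESC libraries in CPM (7.05 and 9.55 in ESC, 8.83 here), and 3732 in that labelled Htt-null (37.9 CPM).

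The 4 Robo receptors lay on the other side, with ratios from -2.50 to -0.35 and 2 of the 4 past the limit. Robo3, the receptor of commissural neurons before they cross the midline, had 125 and 116 reads in ESC, 10061 in the WT-labelled RA-DIFF library and 1563 in that labelled Htt-null, 5.65-fold lower there (log2 ratio -2.50, -2.58 to -2.42 from counting). It was the highest Robo per length in the WT-labelled library (51.6 TPM) and stood at 9.02 TPM in the other. Robo4 had 184 and 32 reads in RA-DIFF, a log2 ratio of -2.26 that rests on few reads (-2.80 to -1.72). Robo1, present in ESC already, had 63.8 and 58.4 CPM there and 174 and 136 CPM in RA-DIFF (-0.35), and Robo2 60.8 and 40.8 CPM in RA-DIFF (-0.58). Robo3 and Robo4 are neighbours on chromosome 9 and run towards each other, with 1.645 kb between their ends (Robo4 at chr9:37401897-37414023, plus strand, Robo3 at chr9:37415669-37433163, minus strand), yet after differentiation Robo3 was higher and Robo4 lower in both lines.

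Of the 6 secreted semaphorins above the limit, class 3 cues mostly known as repellents, 4 were higher in the null-labelled library and none lower, with a median log2 ratio of 1.51. Of all genes 11.7% were higher and 8.99% lower. Sema3c, known from cardiac neural crest and outflow tract, had 152 and 126 reads in ESC and 1148 and 5046 in RA-DIFF (log2 ratio 2.32). Sema3a, the best known growth cone collapsing cue, had 48 and 33 reads, then 881 and 3196 (2.04). Sema3b had 161 reads in each ESC library, 142 in the WT-labelled RA-DIFF library and 426 in the other (1.75), and Sema3d had 226 and 478 reads in RA-DIFF (1.26). Sema3e (0.08) and Sema3f (-0.20) were at like levels in the RA-DIFF libraries, so the family did not move as one.

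The 13 membrane-bound semaphorins were mixed, with 2 higher (15.4%) and 4 lower (30.8%), against 11.7% and 8.99% of all genes. Their higher count is thus near the share of all genes. Sema5a, which acts as attractant or repellent, had 229 and 166 reads in ESC and 2759 and 7949 in RA-DIFF (log2 ratio 1.71), and Sema6d was 1.66 higher. On the other side Sema6c had 795 and 400 reads in ESC and 951 and 280 in RA-DIFF (-1.57) and Sema4a 1802 and 1394, then 1522 and 664 (-1.01), and Sema4g (-0.85) and Sema7a (-0.96) were lower too. Among the receptors, 3 of the 9 plexins were higher and none lower. Plxnb2, a receptor of class 4 semaphorins and the highest guidance gene of RA-DIFF per length, had 10560 and 7001 reads in ESC and 47563 and 71875 in RA-DIFF (0.78, but inside the limit with library size alone). Plxnd1, the endothelial receptor of Sema3e, had 712 and 747 reads, then 1331 and 2204 (0.91), and Plxnb3 had 30 and 126 reads in RA-DIFF (2.17). The plexin-As, partners of the neuropilins, ranged from -0.26 to 0.48. Nrp1 was 0.94 higher and Nrp2, with 15886 and 19914 reads in RA-DIFF and the highest neuropilin level per length (47.1 and 66.5 TPM), 0.51.

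The ephrins differed little. None of the 8 was higher in the null-labelled library, Efna2 was lower (3740 and 1675 reads, -0.97), and the 3 ephrin-Bs had ratios of -0.11, -0.36 and 0.32. Of all genes 11.7% were higher and 8.99% lower, and the 1 lower ephrin (12.5%) is near that share. Of the 8 EphA receptors above the limit, 3 were lower and Epha2 was higher (802 and 1765 reads, 1.32). Epha8 had 83 and 150 reads in ESC and 286 and 41 in RA-DIFF (log2 ratio -2.55), Epha10, an Eph receptor without kinase activity, 138 and 123 then 3039 and 553 (-2.27), and Epha3 4752 and 1787 (-1.22). In Epha8 and Epha10 the WT-labelled RA-DIFF library was the highest of the 4. Of the 5 EphB receptors Ephb3 alone was past the limit, with 4231 and 6862 reads in RA-DIFF (0.88), and Ephb2, the receptor with the most reads among them, had 23902 and 22588 (0.10). The top Eph receptor per length in RA-DIFF was Ephb2 at 66.6 TPM in the WT-labelled library and Ephb4 at 83.6 TPM in that labelled Htt-null.

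Markers of several cell types moved with these differences, and their part in them was not tested. Between the RA-DIFF libraries 11.7% of all genes were higher and 8.99% lower in that labelled Htt-null. Of 12 neuron genes none was higher and 9 were lower in the null-labelled RA-DIFF library (median log2 ratio -1.25), and the list's summed level was 3033 CPM in the WT-labelled library and 1435 in the other. Of 12 mesenchyme and fibroblast genes 11 were higher and none lower (1.91), with sums of 657 and 2531 CPM. The study, with its own marker list, reports most neuron-specific genes as raised further in the null. It also counts far more extracellular matrix genes among those lower in the differentiated null than among those higher. Both directions are opposite to those given here by label, and what this means for the labels was not tested. Of 10 neural progenitor genes 5 were lower (-0.72), with sums of 2954 and 2683 CPM, and of 7 neural crest genes above the limit 5 were lower and 2 higher (506 and 261 CPM over the list of 8). Of 8 endothelial genes above it 3 were higher and 1 lower (32.9 and 98.8 CPM), of 4 visceral endoderm genes above it Foxa2 alone was higher (1.88 and 12.3 CPM, of list sums of 6.51 and 17.1), a gene also of the floor plate list given next, and all 8 pluripotency genes were lower. No gene of these lists was at 0 in either RA-DIFF library.

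A pair of further lists was chosen after values had been seen, because the midline cues and Robo3 stood apart. The floor plate list, with Shh, Foxa2, Foxa1, Spon1 and Ferd3l, had 5 of 5 genes higher (median log2 ratio 2.69) and sums of 109 and 655 CPM, and Shh itself had 1326 and 9960 reads. The list of dorsal commissural neurons, which express Robo3, had 5 of the 5 genes above the limit lower (-3.09) and sums of 300 and 54.1 CPM, with 14106 and 709 reads for Lhx9, while Atoh1 was below the expression limit with 3 and 38 reads. Being picked this way the lists are a description only. In bulk RNA fewer cells of a type and less RNA per cell cannot be told apart, and no library of sorted cells was analysed here.

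**Figure D4:**
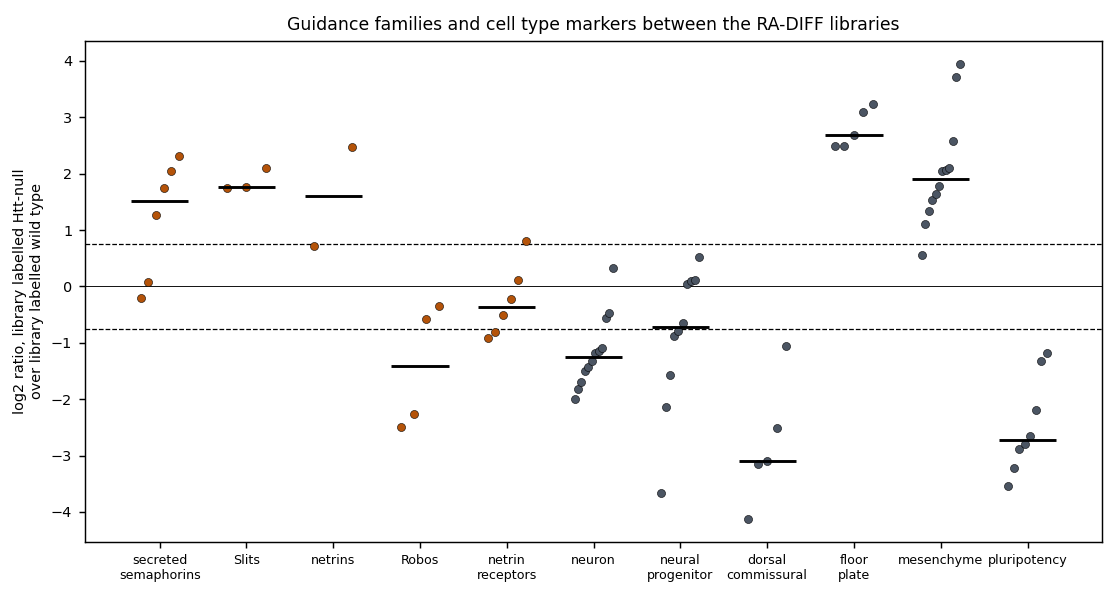
Log2 ratio of the null-labelled RA-DIFF library over that labelled wild type for the genes of 5 guidance families (orange) and 6 marker lists (grey), each point a gene above the expression limit, horizontal bars the medians, dashed lines the 0.75 limits. The 3 Slits, Ntn1 and 4 secreted semaphorins lie above the upper limit and Robo3 and Robo4 below the lower one, and the ranges of several marker lists overlap with each.

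In ESC the guidance genes differed little between the lines. In Htt-null ESC 5 of the 68 were higher and 5 lower, against 5.14% higher and 3.47% lower of all genes, with a median log2 ratio of 0.02. Of these 10, 7 had fewer than 100 reads in each ESC library, namely Robo2, Ephb1, Epha3, Sema3d, Plxna4, Ntng1 and Epha5. These passed the limit, an average over the 4 libraries, with most of their reads in RA-DIFF, so the shares of all genes are no like measure for them. Ntng1, at 3 and 0 reads, gives no ratio and is among the 5 lower only by its fitted value. Fewer genes were called when an exact test at an assumed dispersion of 0.1 was added. With at least 100 reads, Ntn1 was higher (766 and 1033 reads, log2 ratio 0.84), as was Epha8 (83 and 150, 1.25), and Ephb6, an Eph receptor without kinase activity, was lower (446 and 183, -0.87, with 1435 and 868 reads in RA-DIFF). By the labels, Ntn1 was past the limit upwards at both stages (0.84 and 2.47). With the RA-DIFF labels exchanged its ratio there is -2.47, and Epha8 (1.25 and 2.55) and Epha3 (from 0 and 7 reads in ESC, and 1.22 in RA-DIFF) are past it upwards at both stages instead. The genes of chromosomes 8 and 11, which hold Efnb2, Nrp1 and Unc5d, and Efnb3, Ntn1 and Slit3, had median ratios of 0.36 and 0.22 in ESC, beside which the values of these members stand, and in RA-DIFF of -0.22 and 0.01. The mesenchyme list was lower in Htt-null ESC for 7 of 12 genes and higher for 1, Lum, from 0 and 1 reads. Of 12 neuron genes 3 were higher and none lower, and of 10 neural progenitor genes 3 were higher and 1 lower. Among these, Dcx, Neurog2 and Fabp7 had fewer than 10 reads in each ESC library. The part of these lists in the differences was not tested.

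The response to differentiation differed between the lines by the RA-DIFF and ESC differences together. Relative to WT-labelled cells, the log2 change in null-labelled cells was larger by 2.18 for Sema3c, by 2.17 for Sema3a, by 1.66 for Slit3 and by 1.63 for Ntn1. It was smaller for Robo3 (-2.80) and Epha10 (-2.51), both of which were higher in RA-DIFF in each line, and for Epha8 (-3.80). With the RA-DIFF labels exchanged all 7 values change sign and size. They become -2.46 for Sema3c, -1.92 for Sema3a, -2.54 for Slit3 and -3.31 for Ntn1, and 2.20 for Robo3, 2.03 for Epha10 and 1.31 for Epha8. Values past 0.75 with the same sign under either labelling were those of genes with fewer than 100 reads in each ESC library, such as Ephb1 (-2.88, and -1.72 with labels exchanged), Robo2 (-2.73 and -1.58), Epha5 (1.61 and 1.64) and Plxna4 (1.09 and 1.62). The counts behind Epha8 are few, between 41 and 286 reads in the 4 libraries.

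Other genes of the pathway were read from fixed lists. Of 27 cues and surface receptors of other families above the limit, 23 were higher and 1 lower with differentiation in WT-labelled cells and 22 and 2 in null-labelled cells, against 33.9% and 26.1%, and 34.3% and 24.8%, of all genes. Between the RA-DIFF libraries 3 were higher, near the 11.7% of all genes, and 6 lower, where 8.99% of all were. The largest ratios with at least 100 reads were those of Cntn2, an adhesion molecule of commissural axons with 14544 and 2240 reads in RA-DIFF (log2 ratio -2.51), of the chemokine Cxcl12 (1790 and 5146, 1.71), and of Dscam, a further netrin receptor (3048 and 881, -1.60). Of 36 intracellular genes of guidance signalling 22 were higher and 3 lower in WT-labelled cells, 26 and 1 in null-labelled cells, and 6 were higher and 7 lower between the RA-DIFF libraries. Among these the semaphorin effector Mical2 had 1100 and 3720 reads in RA-DIFF (log2 ratio 1.94), and Arhgef28, a guanine nucleotide exchange factor, 818 and 2028 (1.49).

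The Slit genes host the miR-218 loci shown at the start. miR-218-5p, which both loci give and whose reads cannot be assigned to one of them, had 833 reads in wild-type ESC, 2000 in Htt-null ESC, 4172 in the WT-labelled RA-DIFF small RNA library and 3431 in that labelled Htt-null. Scaling matters more for miRNAs than for mRNAs: when TMM was replaced by library size the median of 687 miRNAs moved by -1.14 and -1.85 for RA-DIFF over ESC in the lines labelled wild type and Htt-null, by 0.19 between ESC and by -0.45 between RA-DIFF. miR-218-5p was higher in RA-DIFF by 2.49 and 1.63 with TMM, and by 1.33 and -0.24 with library size alone, so the sign in null-labelled cells depends on the scaling of all miRNAs. Relative to the median miRNA it was higher by 2.46 and 1.84 with TMM and by 2.44 and 1.82 with library size alone. Between the RA-DIFF libraries its ratio was 0.28, or -0.20 with library size alone, next to 1.75 and 2.10 for Slit2 and Slit3.

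The 3p arms separate the loci but have few reads. miR-218-1-3p, from the Slit2 locus, had 6, 13, 19 and 29 reads in the 4 libraries in the same order, and miR-218-2-3p, from the Slit3 locus, had 4, 19, 57 and 14. Between the RA-DIFF libraries miR-218-1-3p was higher in that labelled Htt-null (1.09, or 0.62 with library size alone), as was its host Slit2 (1.75). By contrast miR-218-2-3p was lower there (-1.38, or -1.77 with library size alone), where its host Slit3 was higher. The labels of the small RNA libraries could not be checked with Htt. If the mRNA labels alone were exchanged, Slit3 would be lower, like its arm (-2.10), and Slit2 lower, unlike its arm (-1.75). Of the other 6 miRNA loci inside guidance genes (in Epha4, Sema4a, Ephb1, Plxnb2, Robo2 and Nrp1), only miR-7118-3p, in Plxnb2, is an entry of the small RNA table, with at most 5 reads. The host Epha4 had 7089, 6576, 8717 and 6394 reads, or 81.7, 100.8, 77.8 and 64.9 CPM, with log2 ratios of RA-DIFF over ESC of -0.07 in WT-labelled and -0.63 in null-labelled cells.

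**Figure D5:**
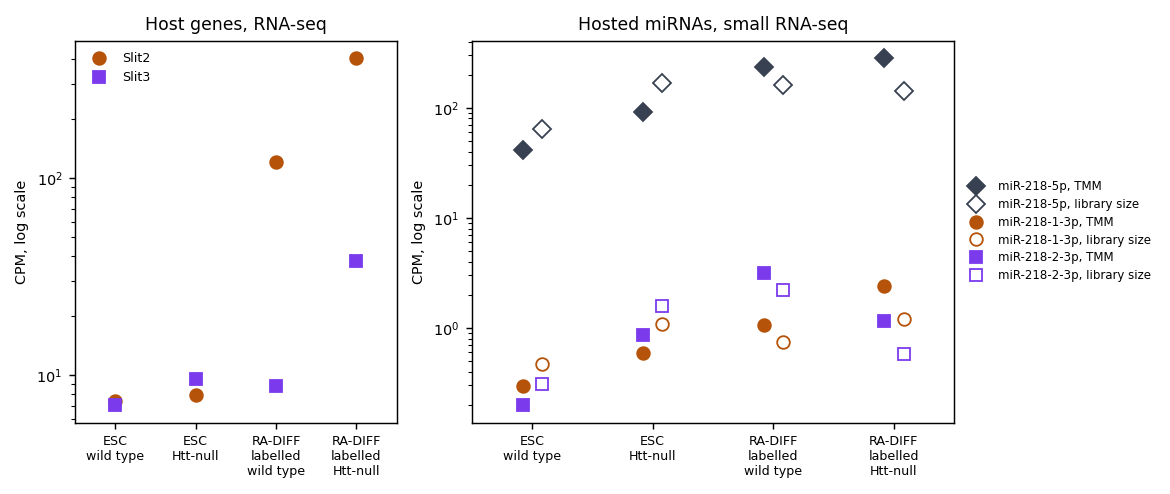
CPM on a log axis of Slit2 and Slit3 (left, RNA-seq) and of the miRNAs from their introns (right, small RNA-seq) in the 4 conditions, 1 library per point; filled symbols use TMM scaling, open ones library size alone. Slit2 and Slit3 are highest in the null-labelled RA-DIFF library, while miR-218-5p is at like levels in the RA-DIFF libraries and miR-218-2-3p is higher in that labelled wild type.

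Exons of 18 of the 71 genes overlap those of another gene, on the opposite strand for 14 of them. Reads there can be left uncounted or given to the other gene. The strand setting of the counting is known only as a default, so the effect of opposite-strand overlaps cannot be told. The overlap exceeded 20% of the exon length for 1, Ntn5, which was below the expression limit. The next were Efna3 (14.1%), Ntng2 (13.98%), Plxna1 (10.7%), Efna4 (10.5%), Sema4c (7.27%) and Epha1 (6.01%), and the others were at 2.68% or less.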

How the data were processed

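Gene counts of 4 RNA-seq libraries and miRNA counts of 4 small RNA libraries, 1 per condition, were used as the authors deposited them. For mRNA the authors aligned 50 bp paired strand-specific reads with TopHat 2.0.14 to GRCm38 and counted them per gene with HTSeq 0.6.1 (Gencode M6; intersection-nonempty mode, other settings stated as defaults). For miRNA they trimmed with cutadapt 1.3 and counted unique BWA 0.7.5a-r418 matches to mature miRBase entries. The miRNA libraries hold between 11976744 and 25656673 counts.

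Counts were scaled by TMM in edgeR 4.0.16 (R 4.3.3) and given as CPM, and ratios as log2 CPM with a prior count of 2. TPM used exon lengths of Gencode. A gene was called past the fold at an absolute log2 ratio above 0.75 with an edgeR average log2 CPM above 0. With 1 library per condition the calls rest on no test, and an exact test at an assumed dispersion of 0.1 was tried as an alternative only. A library at 0 was taken at the floor of 3 counts (0.0268 to 0.0460 CPM) and the fold given as a lower bound. Counting intervals are 95% and come from the read counts. The scripts, in Python 3.11.15 (pandas 2.3.3, numpy 2.4.6, scipy 1.17.1, matplotlib 3.10.9), were tested on simulated counts.

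Groups follow the labels. In the readable rows of the study's supplementary table, 7 guidance genes could be compared, and for the RA-DIFF conditions 7 of 7 lay nearer the deposited column of the other genotype, for ESC 7 of 7 nearer their own. Given in every library were, per comparison, up to 6 members with the largest ratio each way past the fold and with at least 100 reads, the highest member per length of each family, miRNA hosts, and up to 3 genes per pathway list, with some items not reported here; further members are given by role. Members and lists were chosen with earlier results of these data known, and the floor plate and dorsal commissural lists after values had been seen.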

Additional observations from a re-analysis of the deposited data

Results flagged for a closer look

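Opposite directions flagged 3 genes, and none of the differences was tested. Epha8 had a log2 ratio of RA-DIFF over ESC of 1.39 in cells labelled wild type and of -2.40 in cells labelled Htt-null, and between genotypes of 1.25 in ESC and -2.55 in RA-DIFF. Its counts were 83, 150, 286 and 41 reads in wild-type ESC, Htt-null ESC and RA-DIFF labelled wild type and Htt-null, so that the pattern has at most 286 reads behind it.

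Sema3d had a log2 ratio between genotypes of -1.31 in ESC, from 16 and 4 reads, and of 1.26 in RA-DIFF, from 226 and 478 reads. Epha3 had a fitted log2 ratio of 2.55 in ESC, from 0 and 7 reads, which depends on the prior count and is no bound (at least 3.10-fold against the floor of 3 counts), and of -1.22 in RA-DIFF, from 4752 and 1787 reads. With the RA-DIFF labels exchanged, the 2 genotype ratios of each of these 3 genes have the same sign.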

How the results depend on the processing

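No paired analysis was possible because each condition has 1 library and the labels carry no replicate numbers, and for the same reason no replicate could be left out. Scaling by library size or by median-of-ratios factors, no expression limit or a limit of 1 and a prior count of 0.5 left the counts of guidance genes past the fold within 1.5 times. Near the limit, library size alone ended the calls of Plxnb2 and Unc5b between the RA-DIFF libraries and of Sema3b and Efna4 with differentiation in cells labelled Htt-null, where Sema3e and Efna1 passed downwards, and Nrp1 passed upwards between genotypes in ESC. Median-of-ratios factors ended those of Sema4f, Ephb4 and Efna4 with differentiation. Adding an exact test at an assumed dispersion of 0.1, a stricter call by construction, gave 4 lower genes for RA-DIFF over ESC in cells labelled Htt-null, 3 higher and 1 lower between genotypes in ESC, and between genotypes in RA-DIFF 11 higher and 5 lower. With an absolute log2 ratio above 1, 7 guidance genes were lower in RA-DIFF between genotypes. Exchanging the RA-DIFF labels gave 48 higher and 7 lower for RA-DIFF over ESC for the parental line, 45 and 7 for the Htt-null line, and 13 and 17 between genotypes. The ratio of miR-218-5p in cells labelled Htt-null was -0.24 with library size alone, a shift of -1.88 beside -1.85 for the median of all miRNAs. Of single log2 ratios of guidance genes and hosted miRNAs, 49 others moved past counting error with library size alone and 6 with median-of-ratios factors. Medians of single families moved with the limit in 17 cases, such as the secreted semaphorins in RA-DIFF, at 1.26 with no limit and 1.75 with a limit of 1. Depth limits the 7 ESC differences of genes with 0 to 95 reads.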
